A study of Mus musculus with 13 samples.

Results

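Muscle stem cells were picked out among the single cells of uninjured mouse hindlimb muscle. A cell was counted as one when it held UMIs (unique molecular identifiers, each marking 1 captured RNA molecule) of at least 3 of the 8 genes Pax7, Myf5, Myod1, Des, Chodl, Asb5, Gal and Chrdl2, and no UMI of Ptprc, Pecam1 or Rgs5. The rule found 747 muscle stem cells among 12441 cells. They were 320 of 6144 cells in library 1 (5.21%, exact binomial 95% interval 4.67 to 5.79) and 427 of 6297 cells in library 2 (6.78%, interval 6.17 to 7.43), and the intervals cover counting error only. The remaining 5824 and 5870 cells, called the other cells here, were the set against which the muscle stem cells were described. Because measured values of these same cells chose the members, every difference between them and the other cells is a description without a test.

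Both droplet libraries (10x 3' chemistry) came from C57BL/6 wild type mice aged 2 months and hold mononuclear cells freed from uninjured hindlimb muscle. Bulk polyA RNA libraries of sorted cells from mice of the same strain, genotype and age served as samples that the rule did not use. They were 2 libraries of freshly sorted MuSC (muscle stem cells, titled QSC in the labels) and 3 of freshly sorted SMMC (smooth-muscle/mesenchymal-like cells). Both sorts kept cells negative for CD31, CD45 and Sca1 and positive for the integrin ITGA7; MuSC were positive and SMMC negative for the adhesion receptor VCAM1. Another 3 libraries of proliferating SMMC, cultured for 3 days, and 3 of differentiating SMMC entered only the estimate of the spread. The labels do not say which libraries came from separate animals, so the tests measure only the spread between libraries.

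Muscle stem cells, also called satellite cells, lie between a muscle fibre and its basement membrane and give rise to the new myonuclei of growth and repair. In resting muscle they are out of the cell cycle and are held there in part by Notch signals. Pax7 is the paired-box transcription factor that marks the lineage, Myf5 and Myod1 are basic helix-loop-helix factors that commit cells to muscle, and Myog is the factor of terminal differentiation that follows them.

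The 8 genes that chose the cells were found in very unequal shares of them. Values are the share of cells with at least 1 UMI, and CPM, the summed UMIs of a group of cells per 1000000 of that group's UMIs. Des, the muscle intermediate filament desmin, was detected in 86.6% and 78.9% of muscle stem cells of libraries 1 and 2, against 4.76% and 5.6% of the other cells. Asb5, a subunit of a ubiquitin ligase complex, was detected in 81.6% and 83.1%, against 1.55% and 5.18%. These 2 genes were found in most members of both libraries. Pax7 was detected in only 21.3% and 5.15% of muscle stem cells, against 0.275% and 0.187% of the other cells, and its level was 79.4 and 24.9 CPM, against 1.54 and 0.837 CPM. Myf5 was detected in 42.8% and 31.4%, against 0.567% and 1.06%. Myod1 was detected in 53.1% and 72.1%, against 0.927% and 5.30%. Among the 3 myogenic factors of the rule, Pax7 was thus the least and Myod1 the most often detected in both libraries.

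The remaining rule genes encode surface or secreted proteins. Chodl, a membrane lectin, was detected in 83.8% and 50.4% of muscle stem cells, against 4.69% and 6.52% of the other cells. Gal, the precursor of the neuropeptide galanin, was detected in 48.4% and 59.5%, against 1.39% and 7.85%, and up to 176 of its UMIs stood in 1 cell. The 10% of members with the most Gal UMIs held 73.7% and 61.2% of them, while the corresponding 10% held 34.9% and 35.0% of the Asb5 UMIs. Gal was therefore unevenly spread over the members and Asb5 more evenly. Chrdl2, a secreted antagonist of bone morphogenetic proteins, was detected in 50.6% and 48.0%, against 0.446% and 1.48%. No muscle stem cell held all 8 genes.

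Shares of cells with a UMI depend on depth and can include RNA that did not come from the cell itself, as free RNA or from a doublet, which was not tested. In cells with a UMI of the leukocyte gene Ptprc, which should lack the muscle factors, Myod1 was detected in 0.894% of 1901 cells of library 1 (median 2636 UMIs) and 5.13% of 994 cells of library 2 (median 2209 UMIs), close to the share in the other cells as a whole. Muscle stem cells held a median of 3475 and 2549 UMIs, against 2466 and 1958 in the other cells. After thinning every cell to 1000 UMIs, Myod1 was found in 37.8% and 60.6% of muscle stem cells, against 0.426% and 3.12% of the other cells. Pax7 was found in 7.81% and 2.36%, against 0.142% and 0.0721%. The order of Pax7 and Myod1 was the same as before thinning. Mitochondrial genes made a median of 3.34% and 2.91% of UMIs in muscle stem cells, against 2.70% and 2.40% in the other cells. The libraries shared 53 cell barcodes, of which 2 were muscle stem cells in library 1 and 7 in library 2, and none was one in both.

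**Figure D1:**
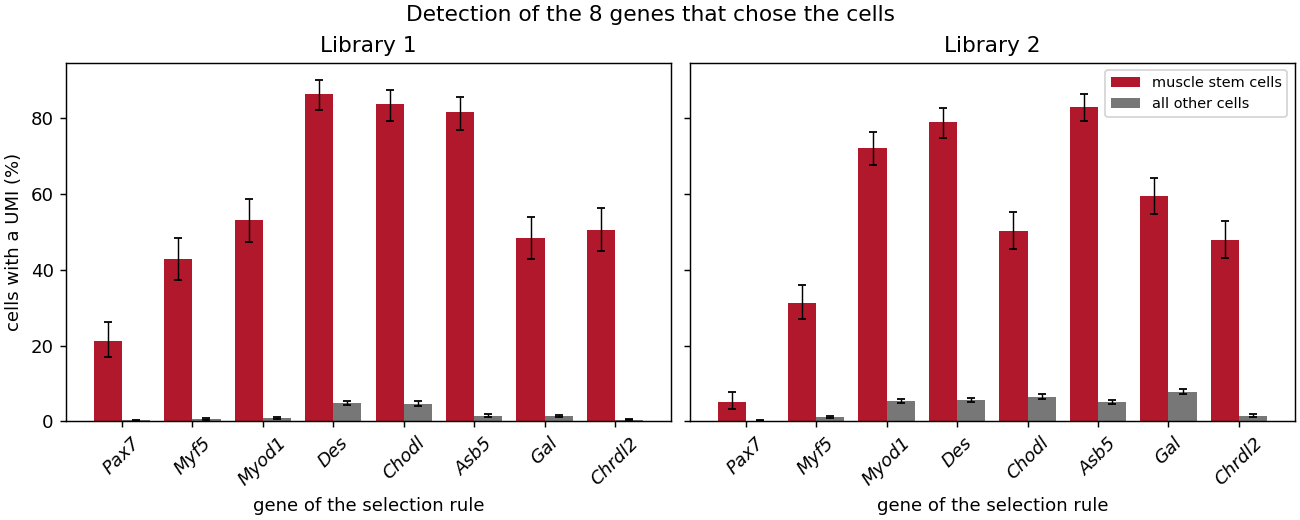
Share of cells (%) with at least 1 UMI of each of the 8 genes of the rule, in muscle stem cells (red) and all other cells (grey), with exact binomial 95% intervals, for library 1 (left) and library 2 (right). Des and Asb5 reach at least 78.9% and 81.6% of members in both libraries, while Pax7 stands at 21.3% of them in library 1 and 5.15% in library 2.

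Cells on the 2 sides of the limit of 3 genes differed in genes the rule did not use, which is given as a description with no test. Among cells free of the 3 excluding genes, 35 cells of library 1 and 121 of library 2 held exactly 2 of the 8 genes, just outside the limit, and 59 and 115 cells held exactly 3, just inside. Sdc4, a membrane proteoglycan and a known surface marker of muscle stem cells, stood at 3980 and 3623 CPM in the cells with 3 rule genes, against 1738 and 1640 CPM in those with 2. Dcn, the collagen-binding proteoglycan decorin made by fibroblast-like cells, stood at 142 and 1299 CPM with 3 rule genes, against 10482 and 11302 CPM with 2. From 3 genes upward neither library showed a further step of that size in Sdc4, which ran from 3160 to 3980 CPM in library 1 and from 3623 to 5786 CPM in library 2. The cells with 2 rule genes therefore carried much fibroblast-type RNA, and those with 3 far less of it. In library 2 Dcn was lower still further inside the limit, at 495 CPM with 4 rule genes, 260 CPM with 5 and 402 CPM with 6. Immune marker genes summed to 103 and 11778 CPM in the cells with 2 rule genes of libraries 1 and 2, against 160 and 581 CPM with 3.

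**Figure D2:**
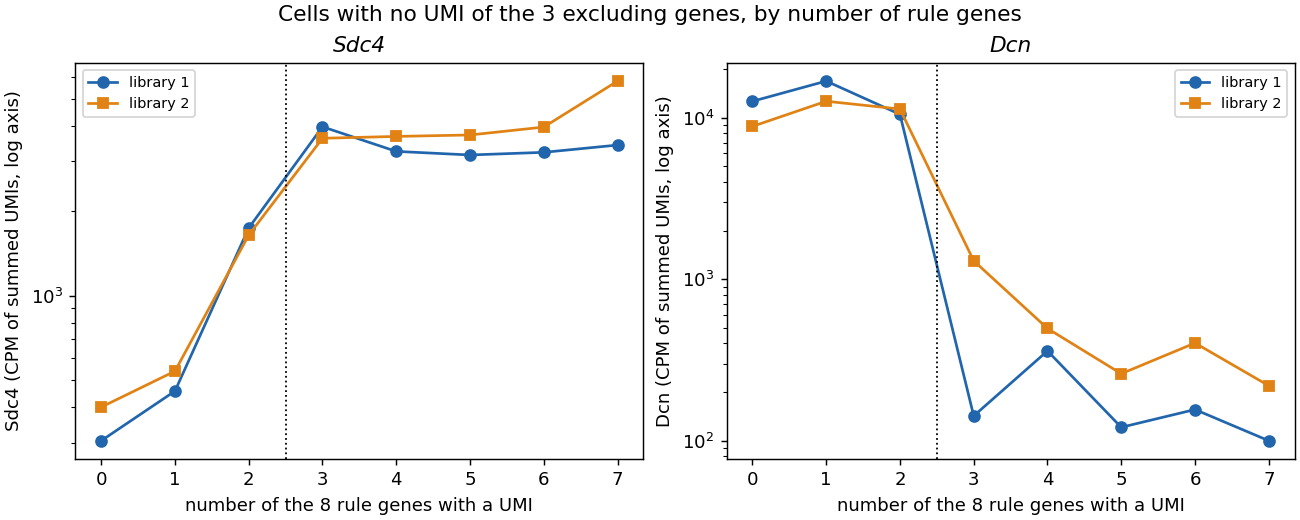
CPM of Sdc4 (left) and Dcn (right) on log axes, in cells with no UMI of Ptprc, Pecam1 or Rgs5, grouped by how many of the 8 rule genes they held, for library 1 (circles) and library 2 (squares). The dotted line is the limit of the rule, and Dcn stands at 142 and 1299 CPM at 3 genes, against 10482 and 11302 CPM at 2.

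The excluding genes removed more candidates from library 2. Of 360 cells of library 1 with at least 3 rule genes, 40 were left out, 14 with Ptprc, 15 with the endothelial gene Pecam1 and 13 with the pericyte gene Rgs5. Of 536 such cells of library 2, 109 were left out, 19 with Ptprc, 65 with Pecam1 and 34 with Rgs5. A cell could hold more than 1 of these genes. The cells left out held a median of 4305 and 3227 UMIs, more than the muscle stem cells, and their Sdc4 level was 2157 and 3167 CPM. Whether they were doublets was not tested.

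Outside the 11 genes of the rule, 50 of 13873 genes (0.36%) were at least 4-fold higher in muscle stem cells in both libraries, and 312 (2.25%) were at least 4-fold lower. Higher genes had to reach 50 CPM in muscle stem cells of both libraries and lower genes 50 CPM in the other cells, and 1 CPM was added before each ratio. Because the rule used this contrast, the counts are given as a description. Known surface markers of muscle stem cells were among the higher genes, which bears on the name given to the cells. Sdc4 stood at 3338 and 3777 CPM in muscle stem cells of libraries 1 and 2, against 259 and 421 CPM in the other cells, 12.8- and 8.96-fold higher. Cd82, a tetraspanin of the muscle stem cell surface, stood at 629.6 and 849.8 CPM, against 52.6 and 79.1 CPM. Cdh15, or M-cadherin, which joins stem cell and fibre, stood at 172 and 74.7 CPM, against 2.09 and 2.37 CPM. Ncam1, a neural cell adhesion molecule carried by myogenic cells, stood at 189 and 141 CPM, against 9.95 and 16.7 CPM. Each of the 4 was higher in both libraries than in the other cells, and Cdh15 had the lowest level and the largest ratio of them.

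These 4 were the called members among 20 surface and niche receptor genes of muscle stem cells, of which none was 4-fold lower. The median log2 ratio of the 20 was 3.19 in library 1 and 2.46 in library 2, beside medians of -0.48 and -0.35 over all genes compared. Vcam1, the adhesion receptor by which MuSC are sorted, missed the call because of library 2: it stood at 750.0 and 519 CPM in muscle stem cells of libraries 1 and 2, against 54.9 and 199 CPM in the other cells. Fgfr1, a receptor for fibroblast growth factors, missed it because of library 1, at 478 and 1079.9 CPM, against 125 and 202 CPM. Fgfr4, another such receptor, was below the 50 CPM floor in library 2, at 75.2 and 43.8 CPM, against 1.59 and 1.67 CPM. Calcr, the calcitonin receptor of quiescent muscle stem cells, was lower still, at 41.0 and 12.9 CPM, against 0.990 and 0.488 CPM. Itgb1 was as high in the other cells (233 and 208 CPM, against 262 and 211 CPM), and Cd34, shared by many stromal cells, was lower in muscle stem cells (120.5 and 74.7 CPM, against 261 and 224 CPM).

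Regulators of transcription were among the leading genes. Vgll2, a cofactor of TEAD factors in muscle, stood at 196 and 102 CPM in muscle stem cells of libraries 1 and 2, against 2.91 and 3.42 CPM in the other cells. Msc, the helix-loop-helix repressor musculin, stood at 199 and 396 CPM, against 6.60 and 21.5 CPM. Sox11, a SOX-family factor, stood at 92.3 and 117 CPM, against 3.19 and 4.25 CPM. Msc and Vgll2 were carried by few cells: the 10% of members with the most UMIs of each held 88.8% and 68.3% of the Msc UMIs and 84.3% and 84.9% of the Vgll2 UMIs. Msc was the only one of the 16 other myogenic transcription factor genes measured in both tables that was 4-fold higher, and Mef2c was the only one that was 4-fold lower (14.5 and 7.73 CPM, against 352 and 156 CPM).

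Secreted factors formed another group. Fam132b (RefSeq symbol Erfe), which encodes the hormone erythroferrone, had the largest ratio outside the rule in the library where it was smaller, at 777 and 870.4 CPM in muscle stem cells of libraries 1 and 2, against 10.2 and 33.3 CPM in the other cells (69.3- and 25.4-fold). Nppc, the precursor of C-type natriuretic peptide, stood at 952 and 323 CPM, against 19.5 and 23 CPM. Clcf1, a secreted cytokine of the interleukin-6 family, stood at 202 and 345 CPM, against 13.6 and 29.8 CPM, and was found in 36.9% and 45.2% of muscle stem cells, against 3.76% and 5.30% of the other cells.

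The other leading genes were structural or metabolic. Flnc, the muscle actin crosslinker filamin C, stood at 249 and 523 CPM in muscle stem cells of libraries 1 and 2, against 16.6 and 39.8 CPM in the other cells. Ankrd1, a titin-binding ankyrin repeat protein, stood at 202 and 112 CPM, against 4.56 and 6.76 CPM. Jsrp1, a protein of the junctional sarcoplasmic reticulum, stood at 143 and 77.3 CPM, against 2.64 and 4.46 CPM. Slc39a14, a zinc and iron transporter, stood at 335 and 264 CPM, against 25.4 and 35.2 CPM. Gxylt2, Neu2, Arl4d and Defb25 were also among the 20 largest ratios. Across the 20 genes the ratio ran from 7.80- to 69.3-fold in library 1 and from 7.31- to 25.4-fold in library 2. For 18 of the 20 it was smaller in library 2.

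**Figure D3:**
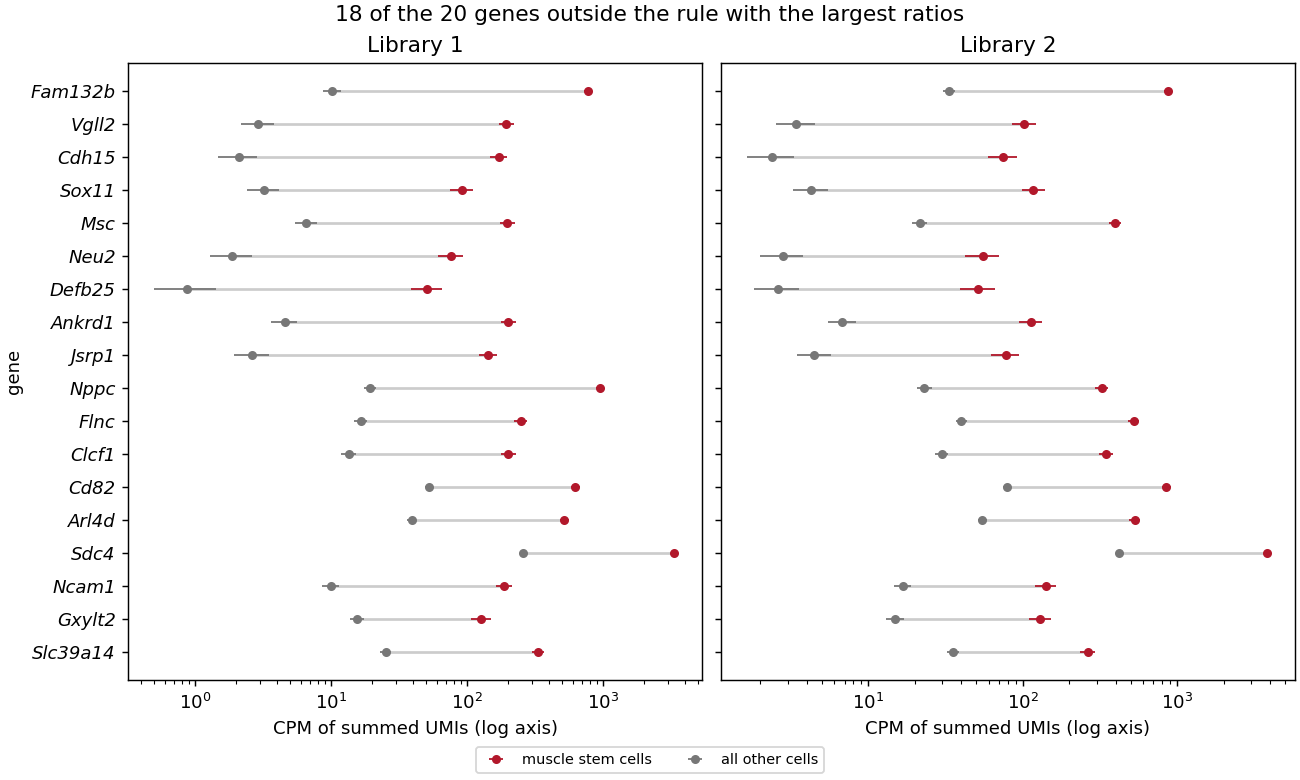
CPM (log axis) of 18 of the 20 genes outside the rule with the largest ratios, in muscle stem cells (red) and all other cells (grey), with exact Poisson 95% intervals that cover counting error only, for library 1 (left) and library 2 (right). The intervals of the 2 groups are apart for each gene, and Sdc4 is the most abundant of them, at 3338 and 3777 CPM.

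Promoters of the rule genes and the leading genes were searched for the E-box CAGCTG, a motif bound by myogenic helix-loop-helix factors, which reads the same on both strands and is one form of CANNTG. RefSeq windows of build GRCm38.p6, from 250 bases before to 50 bases after each start site, were matched for 6 of the 8 rule genes and 12 of the 20 leading genes. CAGCTG was present in a window of 2 of the 6 and 2 of the 12, while 18.3% of all 27025 genes and 16.3% of all 32851 windows held it. The wider form CANNTG was present in 72.3% of all windows. The windows of a rule gene and of a leading gene with the motif are shown, lower case with CAGCTG in capitals, both from the plus strand (Des at chr1:75360042-75360341, Neu2 at chr1:87594300-87594599).
Des: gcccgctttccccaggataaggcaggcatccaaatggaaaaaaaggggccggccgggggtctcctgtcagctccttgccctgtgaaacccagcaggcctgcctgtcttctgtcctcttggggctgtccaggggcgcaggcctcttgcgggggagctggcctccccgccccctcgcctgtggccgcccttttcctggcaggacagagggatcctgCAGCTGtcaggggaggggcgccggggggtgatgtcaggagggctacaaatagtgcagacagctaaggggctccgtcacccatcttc
Neu2: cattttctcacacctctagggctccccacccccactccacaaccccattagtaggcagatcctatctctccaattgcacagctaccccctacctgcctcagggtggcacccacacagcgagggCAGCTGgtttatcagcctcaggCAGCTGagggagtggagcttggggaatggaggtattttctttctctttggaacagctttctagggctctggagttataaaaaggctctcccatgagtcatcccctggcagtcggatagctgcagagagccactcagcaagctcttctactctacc
In Des the motif began 36 bases before the start site, and the Neu2 window, 1 of 3 for that gene, held it 127 and 105 bases before. A match is a description of the letters, not of a bound site.

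The genes lowest in muscle stem cells belonged to stromal and immune cells. Clec3b, a gene of fibroblast-like cells, stood at 5.13 and 7.73 CPM in muscle stem cells of libraries 1 and 2, against 406 and 404 CPM in the other cells. H2-DMa, of class II antigen presentation, stood at 5.13 and 0.858 CPM, against 183 and 91.5 CPM, and Cd3g, a chain of the T cell receptor complex, at 3.42 and 2.58 CPM, against 139 and 81.4 CPM. Bcl2a1d, Retnla, Sp100, Ms4a4b and Ifi205 were the other 5 of the 8 most lowered genes. In muscle stem cells each of the 8 was found in at most 4.06% of cells. The rule left out cells with a UMI of Ptprc, so low levels of immune genes follow in part from it.

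Marker lists of the other cell types were mostly low. At least 4-fold lower in both libraries were 9 of 11 endothelial, 10 of 13 fibro-adipogenic progenitor and 7 of 10 tenocyte genes. So were 9 of 17 immune and 3 of 13 pericyte and smooth muscle genes, and none of these lists had a gene 4-fold higher. Over all 13873 genes compared the share lower was 2.25%. The rule left out cells with a UMI of Ptprc, Pecam1 or Rgs5, so low immune, endothelial and pericyte markers follow in part from the selection. Fibro-adipogenic progenitors are the collagen-producing stromal cells of muscle, and their list summed to 2189 and 2950.3 CPM in muscle stem cells, against 24938 and 21530.4 CPM in the other cells. The immune list summed to 369 and 586 CPM in muscle stem cells, against 8084 and 7861 CPM in the other cells. Within the progenitor list Dcn was low (186 and 606 CPM, against 6813 and 6038 CPM). So was Gsn, the actin-severing protein gelsolin, at 1123 and 1413 CPM, against 8314 and 9032 CPM. Dpt, the matrix protein dermatopontin, differed less, at 213 and 132 CPM, against 290 and 163 CPM. UMIs of all 3 were still found in many muscle stem cells. The shares were 41.6% and 47.8% for Dcn, 88.8% and 89.9% for Gsn and 46.3% and 26.2% for Dpt. Members with at least 3 genes of that list numbered 198 of 320 and 202 of 427. In bulk, Dpt was higher in MuSC, at 468 and 455 FPKM in the MuSC libraries, against 40.5, 36.6 and 36.2 FPKM in fresh SMMC. The pericyte and smooth muscle list differed least, summing to 425 and 418 CPM in muscle stem cells, against 718 and 680.4 CPM in the other cells. Within it Higd1b was at 0 in muscle stem cells of both libraries, while the smooth muscle actin gene Acta2 stood at 141 and 167 CPM, against 156 and 123 CPM, Tagln at 102 and 103 CPM, against 106 and 129.6 CPM and Notch3 at 89.7 and 61.8 CPM, against 14.5 and 15.5 CPM. Tie1 of endothelium stood at 0 and 6.01 CPM, against 45.9 and 67.7 CPM, and Cd68 of macrophages at 0 and 9.44 CPM, against 26.4 and 35.3 CPM. The part of RNA from other cells in these levels was not tested.

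Genes of muscle fibres and of differentiation showed no common direction. The fibre list of 16 measured genes summed to 348 and 679.8 CPM in muscle stem cells, against 517 and 577 CPM in the other cells. The differentiation list of 15 genes summed to 308 and 549 CPM in muscle stem cells, against 327 and 370.3 CPM in the other cells. Both sums were lower in muscle stem cells of library 1 and higher in those of library 2. Single cells weighed on the library 2 sums. There 184 of 258 UMIs of Acta1, a differentiation gene, and 83 of 99 UMIs of Tnnt3, a fibre gene, stood in 1 cell. The median muscle stem cell of library 2 was at 0 CPM for both lists. Chrnb1, a subunit of the muscle acetylcholine receptor (80.3 and 71.2 CPM, against 8.19 and 10.4 CPM), and Actn3, the alpha-actinin of fast fibres (86.3 and 51.5 CPM, against 3.13 and 7.25 CPM), were the only genes of the fibre and differentiation lists that were 4-fold higher in both libraries at the floor. Chrna1, another subunit of the receptor, stood at 76.9 and 32.6 CPM, against 0.935 and 1.53 CPM, under the floor in library 2. Myog was found in 0 of 320 muscle stem cells of library 1 and in 2 of 427 of library 2. The exact binomial upper limit of 1.15% for library 1 is on the share of cells with a UMI at this depth, not on the share expressing the gene. UMIs of Mki67 or Top2a, markers of dividing cells, were rare. Either was found in 7 of 320 and 5 of 427 muscle stem cells (2.19% and 1.17%), against 1.72% and 1.29% of the other cells. Any gene of the cell cycle list was found in 38.1% and 31.9% of muscle stem cells, against 39.1% and 34.4% of the other cells. After thinning, the shares were 15.6% and 11.6% of muscle stem cells, against 18.4% and 18.5% of the other cells.

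In the Notch pathway 1 of 16 genes was 4-fold higher and none 4-fold lower in both libraries. Heyl, a transcriptional target of Notch, stood at 61.5 and 51.5 CPM in muscle stem cells of libraries 1 and 2, against 8.30 and 6.90 CPM in the other cells. The receptor Notch3 stood at 89.7 and 61.8 CPM, against 14.5 and 15.5 CPM, and reached 4-fold in library 1 only. Hes1, another Notch target, was lower, at 115 and 80.7 CPM, against 350.5 and 270.4 CPM. Receptors Notch1 (29.0 and 36.9 CPM, against 37.7 and 55.4 CPM) and Notch2 (65.8 and 67.8 CPM, against 60.6 and 62.3 CPM) lay near the level of the other cells. The Notch targets Heyl and Hes1 thus lay on opposite sides.

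Of the 16 genes of quiescence and cell cycle restraint none was 4-fold apart in both libraries. Over all 13873 genes compared 0.36% were called 4-fold higher and 2.25% 4-fold lower. Cebpb, a leucine zipper factor, was the most abundant, at 2986 and 2495 CPM in muscle stem cells of libraries 1 and 2, against 1109 and 1370.1 CPM in the other cells. Spry1, a feedback inhibitor of receptor tyrosine kinases, stood at 178 and 161 CPM, against 61.1 and 59.7 CPM, and Gas1, a growth arrest gene, at 298 and 115 CPM, against 146 and 89.0 CPM. Class I antigen presentation was lower: 2 of 9 genes were called 4-fold lower, beside 2.25% of all genes compared. The class I list summed to 1885 and 2286 CPM in muscle stem cells, against 6861 and 6516 CPM in the other cells. B2m, the shared light chain, stood at 599.7 and 768 CPM, against 3069.6 and 2589 CPM. Matrix and basement membrane genes were lower as well, with 4 of 18 called, beside the same 2.25% of all genes. Sparc was among the 4 called (683 and 630.1 CPM, against 2939.8 and 3042 CPM).

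UMIs of Pax7 and Myod1 stood together in 9.38% of muscle stem cells of library 1 and 2.34% of those of library 2. In library 1, 30 muscle stem cells held UMIs of both, 38 held Pax7 without Myod1, 140 held Myod1 without Pax7 and 112 held neither. In library 2 the numbers were 10, 12, 298 and 107. Median depth was similar in the 4 classes, from 3374 to 3571 UMIs in library 1 and from 2513 to 2774 in library 2. Of the members, 18.4% and 14.8% held none of Pax7, Myf5 and Myod1 and were chosen by the other 5 genes alone.

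Members with a Myod1 UMI differed from members without one in the same direction in both libraries for several groups of genes, which were picked after all genes had been ranked by this split. Heat shock genes were among those lower with Myod1. Dnajb1, a cochaperone, stood at 2049.8 and 392 CPM with a Myod1 UMI, against 3736 and 828 CPM without one. Hspa1b, an inducible chaperone, stood at 512 and 133 CPM with a Myod1 UMI, against 998 and 259 CPM without one. Nppc stood at 744 and 246 CPM with a Myod1 UMI, against 1189.8 and 528 CPM without one, and Vgll2 at 144 and 86.0 CPM with a Myod1 UMI, against 254 and 145 CPM without one. Higher with Myod1 were Fgl2, a fibrinogen-like protein, at 179.6 and 177 CPM with a Myod1 UMI, against 73.1 and 82.2 CPM without one, and Runx1, a runt-domain factor, at 762 and 671 CPM with a Myod1 UMI, against 519 and 458 CPM without one. The surface markers differed less: Sdc4 stood at 3538 and 3967 CPM with a Myod1 UMI, against 3109 and 3267 CPM without one, and Cd82 at 632 and 838 CPM, against 627 and 882 CPM. The classes are cut from single UMIs, and cells without a UMI of a gene may still express it.

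The split by Pax7 went with larger differences in stress and immediate early genes, also picked after their values were seen. Members with a Pax7 UMI numbered 68 in library 1 and 22 in library 2. In them Hspa1a, an inducible chaperone, stood at 14193 and 8754 CPM, against 3034 and 616 CPM in members without a Pax7 UMI. Fos, a subunit of the AP-1 factor, stood at 5036 and 4836 CPM, against 1371 and 426 CPM. Jun, another subunit, stood at 4003 and 2006 CPM, against 1089 and 301 CPM. All 3 genes were thus higher in the Pax7 class in both libraries, while Sdc4 was lower there, at 2369 and 2597 CPM, against 3607 and 3846 CPM. Cells with a Pax7 UMI held 3613 of the Hspa1a UMIs in library 1 and 563 in library 2, against 2779 and 678 in cells without one. Pax7 is a gene of the rule, so the split is a description.

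Immediate early and heat shock genes were lower in muscle stem cells of library 2 than of library 1, and the tenocyte and endothelial lists were higher. With 1 sample on each side there is no test. At 50 CPM or more in either library, 31 of 13884 genes (0.223%) were at least 4-fold higher and 22 (0.158%) at least 4-fold lower in muscle stem cells of library 2 than of library 1, while 15 and 3 genes were so in the other cells. Immediate early genes, transcribed within minutes of a stimulus, summed in muscle stem cells to 7484 CPM in library 2 and 15484 CPM in library 1, against 12810 and 15433 CPM in the other cells. Heat shock genes summed to 12514 and 28483 CPM, against 11784 and 18857 CPM. Cells with a Pax7 UMI, which carried much of the Hspa1a signal, were 22 of 427 members in library 2 and 68 of 320 in library 1. Fos stood at 4836 CPM in library 2 and 5036 CPM in library 1 in the members with a Pax7 UMI, and at 426 and 1371 CPM in those without. Hspa1a stood at 8754 and 14193 CPM with a Pax7 UMI and at 616 and 3034 CPM without one. The part of the unequal Pax7 share in the difference between the libraries was not tested. Both lists were lower in library 2, by 2.07- and 2.28-fold in muscle stem cells, against 1.20- and 1.60-fold in the other cells.

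Single genes showed the same. Jun stood at 395 CPM in library 2 and 1723 CPM in library 1 among muscle stem cells, against 1121 and 2015 CPM among the other cells. Fosb, another AP-1 subunit, stood at 174 and 762 CPM in muscle stem cells of libraries 2 and 1, against 330.3 and 386 CPM in the other cells. Dnajb1 stood at 511 and 2838 CPM, against 464 and 790.1 CPM. Not every such gene was lower: Fosl1, a Fos-related factor, stood at 549 and 358 CPM, against 138 and 47.2 CPM. Genes outside these lists that were lower in library 2 included the growth factor Igf2 (5.15 and 52.1 CPM, against 6.14 and 17.1 CPM), the zinc finger factor Ikzf4 (6.87 and 58.9 CPM, against 17.6 and 17.6 CPM) and the apoptosis inhibitor Birc3 (30.0 and 189 CPM, against 103 and 97.5 CPM). All 22 genes lower in library 2 were found in at least 10% of muscle stem cells of library 1, and none had more than 14.6% of its UMIs in 1 cell.

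The genes higher in library 2 were of another kind. Of the 31, 7 had at least 50% of their UMIs in 1 cell. Postn, the matrix protein periostin, had the largest ratio (106 and 1.71 CPM, against 65.4 and 62.1 CPM), and 100 of its 124 UMIs stood in 1 cell. For Acta1, the actin of skeletal fibres, 184 of 258 UMIs stood in 1 cell, and for Igkc, an antibody light chain, 538 of 673. Other genes were spread over many cells. S100a9, a neutrophil protein, was found in 104 of 427 muscle stem cells of library 2 (24.4%) with at most 8 UMIs in any, against 1.56% of those of library 1, and in 20.2% and 3.38% of the other cells. Tm4sf1, an endothelial surface protein, stood at 196 and 15.4 CPM, against 1689 and 626 CPM. The tenocyte list summed to 513 and 64.9 CPM in muscle stem cells, against 3393 and 2733 CPM in the other cells. The tenocyte UMIs were concentrated in few cells: Tnmd had 38.0% and Fmod 23.9% of its UMIs in 1 cell of library 2, and the median muscle stem cell of either library held none of the list. Members with at least 3 genes of another cell type's list were then left out. They were 202 of 320 in library 1 and 228 of 427 in library 2. Most of them, 198 and 202, held 3 genes of the fibro-adipogenic progenitor list, which includes Gsn and Dpt. In the remaining members the log2 ratio of library 2 over library 1 was 2.04 for Fmod and 2.44 for Tm4sf1. With all members it was 3.73 and 3.59. Fmod is on the tenocyte list used to leave cells out, so its lower ratio is in part fixed by the filter. The endothelial list summed to 501 and 126 CPM, against 4549 and 4433 CPM. The part of RNA from other cells in the differences between the libraries was not tested.

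**Figure D4:**
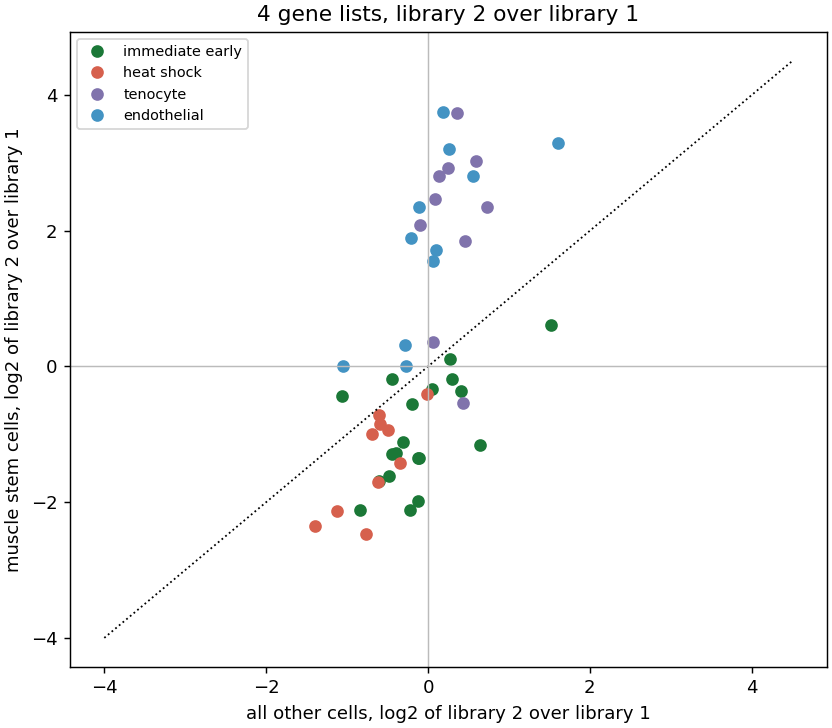
Log2 ratio of library 2 over library 1 in muscle stem cells (vertical axis) against that in all other cells (horizontal axis), 1 point a gene, for the immediate early, heat shock, tenocyte and endothelial lists. Most immediate early and heat shock genes lie below the dotted line of equal ratios, Jun at -2.12 and -0.85, and most tenocyte and endothelial genes above it.

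The bulk libraries gave a test in samples that did not choose the cells, although their contrast was another one: sorted MuSC against sorted fresh SMMC, not against all other cells. In limma's test on log2(FPKM + 1), where FPKM are fragment numbers corrected for transcript length and library size, 2384 of 13233 genes (18.0%) were higher and 5522 (41.7%) lower in MuSC at an adjusted p under 0.05, with a median log2 difference of -0.45. Under quantile normalization the median was 0.04 and the numbers were 4027 higher and 3737 lower, so directions of small size depend on the scaling. In bulk samples, fewer cells of a type and less RNA per cell cannot be told apart.

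Of the 100 genes outside the rule with the largest single-cell ratios, 99 were tested in bulk, and 66 of them (66.7%) were higher and 8 lower in MuSC, with a median log2 difference of 1.67. Among all 2021 genes at the same single-cell level of 50 CPM, 26.9% were higher and 34.5% lower. With quantile normalization 75 of the 99 were higher and 4 lower, while 33.8% of the 2021 genes were higher and 30.1% lower. Of the 312 genes that were 4-fold lower in muscle stem cells, 249 were tested, and 221 were lower and 6 higher in MuSC. In both directions the shares are set beside those of all genes tested, 18.0% and 41.7%, with no test of the difference.

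Of the 8 rule genes 7 were higher in MuSC and 1 lower, beside 18.0% and 41.7% of all genes tested. Myf5 stood at 1269.7 and 2617 FPKM in the MuSC libraries, against 3.86, 9.23 and 5.13 FPKM in fresh SMMC (log2 difference 8.08 ± 0.65 SE, limma adjusted p = 6.52e-07). Pax7 stood at 19.3 and 20.3 FPKM in the MuSC libraries, against 0.367, 1.32 and 1.83 FPKM in fresh SMMC (log2 difference 3.32 ± 0.50 SE, limma adjusted p = 0.000113). Gal stood at 1939.7 and 1179 FPKM in the MuSC libraries, against 68.4, 41.4 and 21.0 FPKM in fresh SMMC (log2 difference 5.24 ± 0.44 SE, limma adjusted p = 9.7e-07). No MuSC library overlapped with an SMMC library in these 3 genes. Myod1 was higher by less, at 372 and 256 FPKM in the MuSC libraries, against 81.9, 90.0 and 44.9 FPKM in fresh SMMC (log2 difference 2.14 ± 0.30 SE, limma adjusted p = 6.18e-05). Chodl went the other way, at 140.1 and 127 FPKM in the MuSC libraries, against 324, 409 and 261 FPKM in fresh SMMC (log2 difference -1.29 ± 0.22 SE, limma adjusted p = 0.000306), with all SMMC libraries above both MuSC libraries. In the single cells Chodl had been the rule gene with the smallest ratio, 10.6- and 3.11-fold. The difference in Chrdl2 (log2 difference 1.17 ± 0.38 SE, limma adjusted p = 0.0174) was not called without MuSC replicate 1, without fresh SMMC replicate 1 or with a pseudocount of 0.1 (adjusted p = 0.121, 0.0594 and 0.0607 in the same test), and that in Asb5 (log2 difference 1.32 ± 0.35 SE, limma adjusted p = 0.0058) not without MuSC replicate 1 (0.0889).

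Of the 20 leading genes 17 were higher in MuSC, 1 was lower and 2 were not called. Over all genes tested 18.0% were higher and 41.7% lower. Sdc4 had 25697 and 36853 FPKM in the MuSC libraries, against 515, 511 and 424 FPKM in fresh SMMC (log2 difference 6.00 ± 0.32 SE, limma adjusted p = 2.72e-08). Sox11 had 704 and 1369.8 FPKM in the MuSC libraries, against 1.58, 2.22 and 1.29 FPKM in fresh SMMC (log2 difference 8.52 ± 0.35 SE, limma adjusted p = 5.86e-09). Ncam1 had 419 and 626 FPKM in the MuSC libraries, against 14.0, 10.3 and 7.15 FPKM in fresh SMMC (log2 difference 5.52 ± 0.27 SE, limma adjusted p = 1.32e-08). These 3 showed the largest differences of the 20, and their groups did not overlap. Cd82 had 822 and 528 FPKM in the MuSC libraries, against 95.4, 125 and 63.8 FPKM in fresh SMMC (log2 difference 2.84 ± 0.29 SE, limma adjusted p = 4.58e-06), and Fam132b had 336 and 382 FPKM in the MuSC libraries, against 32.9, 73.0 and 36.6 FPKM in fresh SMMC (log2 difference 2.98 ± 0.32 SE, limma adjusted p = 7.36e-06). Cdh15 had 52.0 and 32.4 FPKM in the MuSC libraries, against 1.60, 3.77 and 4.95 FPKM in fresh SMMC (log2 difference 3.33 ± 0.34 SE, limma adjusted p = 5.09e-06), and Nppc had 18.1 and 16.5 FPKM in the MuSC libraries, against 1.18, 3.59 and 2.69 FPKM in fresh SMMC (log2 difference 2.46 ± 0.27 SE, limma adjusted p = 8.29e-06). Vgll2 was not called, at 5.41 and 10.1 FPKM in the MuSC libraries, against 6.97, 11.6 and 7.10 FPKM in fresh SMMC, and Jsrp1 was not called, at 3.97 and 3.02 FPKM in the MuSC libraries, against 6.72, 4.82 and 2.80 FPKM in fresh SMMC; both log2 differences changed sign under quantile normalization. The calls of Msc and Arl4d were lost with a pseudocount of 0.1 (adjusted p = 0.0804 and 0.0719 in limma's test).

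Clcf1 was higher in MuSC, at 114 and 91.4 FPKM in the MuSC libraries, against 44.5, 44.6 and 29.2 FPKM in fresh SMMC (log2 difference 1.37 ± 0.32 SE, limma adjusted p = 0.00255). Genes of the 100 that were lower in MuSC included Adgra3, Cryab, Errfi1, Idi1, Rrs1, Spsb1 and Hacd1, of which Cryab, a small heat shock protein, had 284 and 228 FPKM in the MuSC libraries, against 699.6, 539 and 517 FPKM in fresh SMMC. Adgra3, Idi1, Spsb1 and Hacd1 were not called under quantile normalization.

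**Figure D5:**
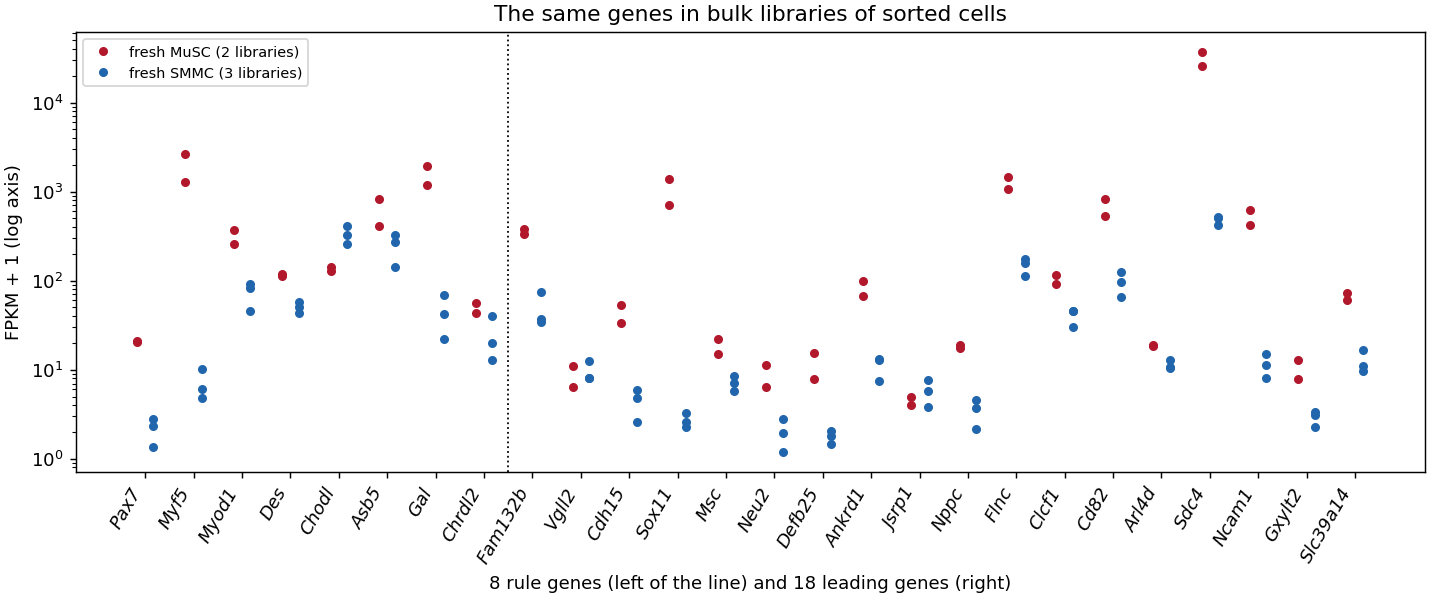
FPKM + 1 (log axis) of the 8 rule genes (left of the dotted line) and 18 of the 20 leading genes (right of it) in each of the 2 fresh MuSC libraries (red) and the 3 fresh SMMC libraries (blue). Sdc4 lies at 25697 and 36853 FPKM in MuSC and at 424 to 515 FPKM in SMMC, while Chodl is lower in MuSC.

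Surface and niche receptors of muscle stem cells were mostly higher in MuSC. Of 19 surface and niche receptor genes tested, 15 (78.9%) were higher and 3 (15.8%) lower in MuSC, beside 18.0% and 41.7% of all genes. The list includes Vcam1, whose protein separated the 2 sorts, so the direction of that gene follows in part from the sort. Musk, a receptor kinase of the neuromuscular synapse, had 889 and 1249.6 FPKM in the MuSC libraries, against 30.1, 30.1 and 14.6 FPKM in fresh SMMC (log2 difference 5.42 ± 0.34 SE, limma adjusted p = 8.52e-08). Cxcr4, a chemokine receptor, had 17 and 22.7 FPKM in the MuSC libraries, against 0.111, 0.111 and 0.274 FPKM in fresh SMMC (log2 difference 4.15 ± 0.19 SE, limma adjusted p = 1.06e-08). In the single cells Musk stood at 35.9 and 55.8 CPM in muscle stem cells of libraries 1 and 2, against 1.32 and 2.3 CPM in the other cells. Cxcr4 stood at 42.7 and 62.7 CPM, against 74.8 and 38.6 CPM, lower in muscle stem cells of library 1 and higher in those of library 2, unlike its one direction in bulk. Lower in MuSC were Itgb1, Sdc3 and Cdh2. The tenocyte list was lower in MuSC in 10 of 10 genes. The pericyte and smooth muscle list was lower in 12 of 13 and the fibro-adipogenic progenitor list in 11 of 13, beside 41.7% of all genes. These counts were the same under quantile normalization, where 30.4% of all genes were higher and 28.2% lower.

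In the Notch pathway 3 of 16 genes (18.8%) were higher and 4 (25.0%) lower in MuSC, beside 18.0% and 41.7% of all genes, and under quantile normalization 4 were higher and 3 lower. Notch2 had 167 and 272 FPKM in the MuSC libraries, against 6.74, 6.67 and 7.05 FPKM in fresh SMMC (log2 difference 4.78 ± 0.26 SE, limma adjusted p = 3.19e-08). Hes1 had 0.364 and 0.697 FPKM in the MuSC libraries, against 38.5, 79.2 and 109 FPKM in fresh SMMC (log2 difference -5.53 ± 0.43 SE, limma adjusted p = 5.13e-07), the direction also seen in single muscle stem cells. Heyl was not called, at 73.8 and 55.9 FPKM in the MuSC libraries, against 48.2, 92.8 and 168 FPKM in fresh SMMC, with groups that overlapped. Immediate early genes were lower in MuSC in 13 of 20 (65.0%) and higher in 2. Jun had 73.4 and 153 FPKM in the MuSC libraries, against 1480.1, 1852 and 1887 FPKM in fresh SMMC (log2 difference -4.02 ± 0.31 SE, limma adjusted p = 4.38e-07). Of the heat shock genes 5 of 10 (50%) were lower, near the 41.7% of all genes, and none was higher. Hspa1a stood at 45.2 and 147 FPKM in the MuSC libraries, against 1734, 3739.7 and 4853 FPKM in fresh SMMC (log2 difference -5.25 ± 0.48 SE, limma adjusted p = 1.9e-06). The immediate early counts were the same under quantile normalization, and the heat shock count was 7 of 10. Among the single cells of library 1, the immediate early list summed to 15484 CPM in muscle stem cells and 15433 CPM in the other cells, and the heat shock list to 28483 and 18857 CPM. In library 2 the immediate early list summed to 7484 CPM in muscle stem cells and 12810 CPM in the other cells, and the heat shock list to 12514 and 11784 CPM.

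Myogenic factors and cell cycle genes moved in both directions in bulk. Of 18 other myogenic transcription factor genes 5 were higher and 8 lower in MuSC, and under quantile normalization 8 were higher and 5 lower. Myog was lower, at 3.53 and 2.38 FPKM in the MuSC libraries, against 19.5, 8.64 and 14.6 FPKM in fresh SMMC (log2 difference -1.90 ± 0.40 SE, limma adjusted p = 0.00144). Of 20 cell cycle genes 4 were higher and 3 lower, against 12 and 1 under quantile normalization. Of 16 genes of quiescence and cell cycle restraint 3 (18.8%) were higher and 9 (56.2%) lower, and under quantile normalization 3 were higher and 7 lower. The share of higher genes was near the 18.0% of all genes tested, of which 41.7% were lower. Spry2, an inhibitor of fibroblast growth factor signals, had the values 1768 and 2598 FPKM in the MuSC libraries, against 6.67, 10.6 and 14.4 FPKM in fresh SMMC (log2 difference 7.59 ± 0.33 SE, limma adjusted p = 7.44e-09).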

How the data were processed

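The single-cell values are raw UMI counts per gene and cell in 2 tables deposited by the authors. The submitters' processing notes name Cell Ranger 2.1.0 and 2.2.0, STAR 2.5.1b, Seurat 2.2 and 2.3.4 and build mm10. Which version made which table was not resolved here. The part of processing in the differences between the libraries was not tested. How the authors filtered cells is not given in the sources used here. Bulk values are FPKM that the authors deposited for 24411 genes, and the submitters' processing notes name HISAT2 2.1.0, SAMtools 1.3.1 and StringTie, without parameters. Without counts the depth of the bulk libraries is unknown. Another 4 FPKM columns match no sample used here and were left out.

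Muscle stem cells were chosen as described in the report, and UMIs were summed over them and over all other cells of each library (1170612 and 1164964 UMIs, against 18182716 and 14342974). Sums were scaled to CPM, with 1 CPM added before ratios. Counting error was given by exact Poisson and binomial 95% intervals. Doublets were not called. For shares at equal depth each cell was thinned to 1000 UMIs, which left out 186 and 327 shallower cells. Bulk values were tested as log2(FPKM + 1) with limma 3.58.1 (R 4.3.3, empirical Bayes with a trend) over all 11 libraries and 13233 genes of at least 1 FPKM in at least 2 libraries, with Benjamini-Hochberg adjustment and a threshold of 0.05. Replicate numbers did not enter the fit. The scripts (Python 3.11.15, numpy 2.4.6, pandas 2.3.3, scipy 1.17.1) were tested on simulated data.

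The members and the gene lists were chosen with earlier results of these data known. Named genes were the rule genes, the 20 largest ratios of muscle stem cells over other cells (ranked by the smaller of the 2 libraries), the 8 most lowered genes, the 5 largest ratios between the libraries each way and up to 5 members of each list with the highest level. Other named genes were chosen after their values were seen. Predicted, mitochondrial, ribosomal protein and haemoglobin genes were not named. Of the 20 largest ratios, 2 are not reported here by gene.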

Additional observations from a re-analysis of the deposited data

How the results depend on the processing

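The called results kept their direction under the alternatives run for them. Under quantile normalization the median bulk log2 difference over all genes moved to 0.04, against -0.45, and the uncalled differences of Vgll2 and Jsrp1 became 0.51 and 0.47, against -0.15 and -0.31; the list counts that turned with it stand in the report. The share of muscle stem cells was 4.25% in library 1 and 4.95% in library 2 with at least 4 of the 8 genes, 5.86% and 8.51% with no excluding gene, 4.51% and 5.64% with Des left out, and 3.61% and 5.49% after thinning. In library 2 it was also 8.70% with at least 2 genes and 5.42% with 6 of the 8 genes. The 50 genes that were 4-fold higher became 85 with a floor of 20 CPM and 127 with no floor, and the 312 lower genes 608 and 1184. From 1 library alone, without replicate 1 or 2, 77 to 111 genes were higher and 414 to 488 lower. Genes 4-fold higher in library 2 than in library 1 numbered 56, against 31, in an alternative chosen after seeing the data. It left out members with at least 3 genes of another cell type's list. These were 202 of 320 and 228 of 427 members, most through the fibro-adipogenic progenitor list. It moved the log2 ratio between the libraries to 2.04 for Fmod, itself on the tenocyte list, and 2.44 for Tm4sf1, against 3.73 and 3.59. In bulk, the genes lower in MuSC numbered 3539 with a filter of 10 FPKM, among 7892 tested, and the genes higher numbered 4027 under quantile normalization. Leaving out 1 bulk library in turn gave 1626 to 2242 higher and 4262 to 5453 lower genes, and 55 to 69 of the 100 leading genes higher. Over all alternatives, bulk values of the rule genes and the 20 leading genes stayed on their side of the threshold in 298 cases and lost the call in 6. Adgra3, Idi1, Spsb1 and Hacd1, outside both sets, lost theirs under quantile normalization (limma adjusted p = 0.221, 0.0655, 0.0656 and 0.207). The cause of these changes was not tested beyond what each alternative itself removes.

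The shared replicate numbers were checked in bulk. Deviations from the group mean correlated over genes at 0.117 and 0.0112 for same-numbered libraries, and at -0.0112 and -0.117 for other-numbered ones. With only 2 MuSC libraries their deviations mirror each other, so this check cannot decide whether the numbers pair the libraries. With a replicate block 2328 genes were higher and 5314 lower in MuSC, and 65 of the leading genes were higher.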

Other observations

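The circadian repressors Nr1d1 and Nr1d2, which were picked after their values were seen, were higher in library 2. Nr1d1 stood at 79.0 CPM in library 2 and 8.54 CPM in library 1 among muscle stem cells, against 38.1 and 1.59 CPM among the other cells. Nr1d2 stood at 61.8 CPM in library 2 and 12.0 CPM in library 1 among muscle stem cells, against 32.9 and 7.75 CPM among the other cells. Other clock genes differed less, with Dbp at 4.29 and 2.56 CPM in muscle stem cells of libraries 2 and 1 and Clock at 35.2 and 64.1 CPM.

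Secreted and matrix genes of muscle stem cells beyond those already described included Gpx3, an extracellular peroxidase, at 3042 and 5377 CPM in muscle stem cells of libraries 1 and 2, against 434 and 710.1 CPM in the other cells. Pdpn, the membrane glycoprotein podoplanin, stood at 741 and 1598 CPM, against 103 and 210.3 CPM, and Meg3, an imprinted noncoding RNA, at 2922 and 2664 CPM, against 474 and 532 CPM. In bulk Pdpn was higher in MuSC, at 6534 and 8593 FPKM in the MuSC libraries, against 232, 224 and 128 FPKM in fresh SMMC (log2 difference 5.31 ± 0.41 SE, limma adjusted p = 5.12e-07).

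The limits of these values are few libraries and shallow cells. Each single-cell level rests on 2 libraries that the labels do not tie to separate animals, and each bulk contrast on 2 MuSC libraries. A gene at 1 UMI in the members of a library stands near 0.858 CPM. Calls of higher genes therefore needed 50 CPM in muscle stem cells of both libraries. Calls of lower genes needed it only in the other cells, and calls between the libraries in either library. Levels of a few UMIs in muscle stem cells thus entered those ratios, and their size is uncertain.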
